A study of Arabidopsis thaliana with 12 samples.

Results

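The genes described here serve the modification of ribosomal RNA and small nucleolar ribonucleoproteins (snoRNPs), and they were measured in Arabidopsis flowers. A gene was a member if the deposited table gave it the Gene Ontology term rRNA modification or the term small nucleolar ribonucleoprotein complex, and 68 of 27715 genes were. The first term held 61 of them and the second 64, and 57 had both. The table describes 60 members as snoRNA, and the other 8 code for proteins. The terms came to notice because their genes were higher with heat in wild-type flowers, so the members were selected on wild-type values at both temperatures, which are given as a description.

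Each library came from flowers of stages 1 to 12. The groups were XBAT31 mutant flowers held at 38 °C for 3 h, XBAT31 mutant flowers at 22 °C, wild-type (WT) flowers held at 38 °C for 3 h, and WT flowers at 22 °C. Each group had 3 libraries of 9 flowers each, 12 in all. Whole young flowers mix many cell types, so fewer cells of a type and less RNA per cell cannot be told apart.

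Small nucleolar RNAs guide chemical changes of ribosomal RNA (rRNA) in the nucleolus. Box C/D snoRNAs pair with rRNA just before a D box and place ribose methyl groups through fibrillarin, held in a particle with NOP56, NOP58 and a small RNA-binding protein. Box H/ACA snoRNAs place pseudouridines through the enzyme CBF5 (dyskerin), with GAR1, NOP10 and NHP2, and a few snoRNAs such as U3 serve in cutting the rRNA precursor. In plants many snoRNA genes lie close together and are copied as one precursor, which nucleases then cut and trim. Mature snoRNAs carry no poly(A) tail, while these libraries were made from poly(A) RNA, so the deposited values do not tell mature forms from precursors or tailed forms.

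The RNA members lie on all 5 nuclear chromosomes, 38 of them in 15 clusters of neighbours within 1000 bases on one strand and 22 alone. They were short, from 72 to 702 bases with a median of 83, and 58 were under 150 bases. All 60 have the same start and end in RefSeq's annotation of the TAIR10.1 assembly, from which the sequences below were read. Letter patterns of the box C/D class were searched on the gene's own strand, TGATGA for the C box and CTGA for the D box. TGATGA followed by CTGA stood in 53 of 60 members (88.3%), against 0.578% of 1433126 windows of 83 bases along one strand of the 5 nuclear chromosomes. The members were already described as snoRNA and reach 702 bases, so these shares are a description and no test. TGATGA began within 12 bases of the start in 48 members and CTGA ended within 12 bases of the end in 51. The members on which the results turn include a cluster of 4 on chromosome 4 (chr4:18304891-18305704, plus strand, 814 bases), printed 5′ to 3′ with TGATGA and the last CTGA in capitals.
AT4G39361: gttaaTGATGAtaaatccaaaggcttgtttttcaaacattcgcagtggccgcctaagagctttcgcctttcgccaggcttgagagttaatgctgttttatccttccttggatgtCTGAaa
AT4G39363: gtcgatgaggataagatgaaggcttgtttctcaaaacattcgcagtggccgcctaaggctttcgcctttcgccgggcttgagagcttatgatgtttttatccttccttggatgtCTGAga
AT4G39364: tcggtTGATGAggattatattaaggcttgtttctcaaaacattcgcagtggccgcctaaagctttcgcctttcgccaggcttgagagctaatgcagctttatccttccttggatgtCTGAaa
AT4G39366: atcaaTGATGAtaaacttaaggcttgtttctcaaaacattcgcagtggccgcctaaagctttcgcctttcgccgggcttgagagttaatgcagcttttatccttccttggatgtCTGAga
The 4 genes are 87.0% to 90.2% identical to each other over their aligned length, and AT4G39363 lacks the exact TGATGA. The same 14 bases stand just before the last CTGA in all 4 and are the reverse complement of acatccaaggaagg in the 18S rRNA gene (chr3:14198090-14198103, TAIR10.1). Reads of such close copies may have been split or shared between them, and no source used here states how they were counted.

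The pairing stretch was searched in every RNA member as a run of at least 10 bases that ends 0 to 3 bases before a CTGA and is complementary to the rRNA of the chromosome 3 array (chr3:14197677-14203916, from the 18S start to 4000 bases past the 5.8S end). Such a run stood in 43 of 60 members, against 1 of 60 when the other strand of the same region was searched. Its site lay in 18S for 20 members, in 5.8S for 1 and downstream of 5.8S for 22, and the longest run had 14 bases. The 43 runs fell on 28 sites, and 25 members shared a site with at least 1 other member. A match of letters is a description and does not show that the site is modified. Members that the results below turn on are printed next with the complementary run in capitals, to show which rRNA stretch each could pair with.
AT3G47342: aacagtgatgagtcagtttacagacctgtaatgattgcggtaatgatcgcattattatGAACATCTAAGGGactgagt
AT3G47347: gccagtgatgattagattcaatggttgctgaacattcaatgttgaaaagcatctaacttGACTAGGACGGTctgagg
AT2G35742: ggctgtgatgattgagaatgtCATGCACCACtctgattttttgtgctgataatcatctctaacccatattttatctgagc
AT2G35744: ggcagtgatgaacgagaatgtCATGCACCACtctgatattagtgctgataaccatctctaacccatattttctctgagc
AT2G05765: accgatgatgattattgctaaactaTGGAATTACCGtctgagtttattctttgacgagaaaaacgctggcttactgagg
AT1G32385: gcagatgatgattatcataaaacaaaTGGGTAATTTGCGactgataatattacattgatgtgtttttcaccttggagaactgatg
AT3G50825: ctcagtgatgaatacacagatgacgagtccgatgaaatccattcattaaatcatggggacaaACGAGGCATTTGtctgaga
The site of AT3G50825 lies downstream of 5.8S (chr3:14202383-14202394) and the sites of the other 6 lie in 18S. AT2G35742 and AT2G35744 are similar in sequence and share one site. AT1G32385 shares its site with AT2G35382, a low member of another locus.

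The libraries held 44983198 to 63088433 estimated counts. These counts were proportional to FPKM times gene length within a library (largest over smallest ratio among members above 20 counts at most 1.04). No source used here states how they were derived, so they may differ from the number of sequenced fragments. An FPKM value is a fragment number scaled to gene length and to the size of the library. The targeted gene XBAT31 was lower in mutant than in WT flowers at 38 °C (log2 fold change -1.15, SE 0.08) and at 22 °C (-0.93, SE 0.08), with adjusted p = 6.98e-05 and 0.000861 by edgeR's quasi-likelihood test. Floral organ identity genes were present in every library (summed 428 to 456 FPKM in mutant 38 °C, 423 to 490 in mutant 22 °C, 433 to 470 in WT 38 °C and 455 to 484 in WT 22 °C libraries). 3 libraries (mutant 38 °C replicate 1, mutant 22 °C replicate 2 and WT 38 °C replicate 2) stood apart on the second principal component, which held 14.6% of the variance. Summed markers of maturing pollen (11 genes, none at 0) ran from 1162 to 4343 FPKM in mutant 38 °C, 3457 to 4210 in mutant 22 °C, 2061 to 3701 in WT 38 °C and 3156 to 6574 in WT 22 °C libraries, and 0 of 11 passed for heat in the mutant (median log2 fold change -0.84). In scaled counts, 5 of the 11 had every mutant library at 38 °C below every mutant library at 22 °C, beside 18.6% of all genes. The reverse held for 0 of 11, beside 17.1%. Green tissue markers (6 genes, none at 0) ran from 3230 to 4260 FPKM in mutant 38 °C, 1932 to 4011 in mutant 22 °C, 3046 to 3720 in WT 38 °C and 3328 to 6052 in WT 22 °C libraries. With heat in the mutant the green tissue gene CAB2 rose (1.69, SE 0.35, edgeR adjusted p = 0.0054) and the other 5 did not pass, while 2 of 5 floral organ genes fell, AG (-0.37, SE 0.08, edgeR adjusted p = 0.0072) and SEP3 (-0.30, SE 0.08, edgeR adjusted p = 0.022). The part of these lists in the results was not tested. For heat in the mutant, the numbers of RNA and protein members that passed in edgeR are given without the 3 libraries that stood apart too. Counts of genes whose libraries did not overlap, and counts for other lists and RNA classes, are not. The replicates are labelled as biological, but no source used here says that they came from separate plants or days, so the p-values may reflect technical scatter.

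The 60 RNA members together were higher at 38 °C than at 22 °C in both genotypes, and the mutant libraries at 38 °C lay below the WT libraries at 38 °C. Their summed share of all counts, as CPM (counts scaled to the library total), was 90.9, 76.0 and 86.9 in mutant flowers at 38 °C, against 44.0, 46.8 and 42.1 in mutant flowers at 22 °C. It was 130, 140 and 119 CPM in WT flowers at 38 °C and 47.6, 46.1 and 47.4 in WT flowers at 22 °C. No 38 °C library overlapped a 22 °C library of its genotype, and at 22 °C the ranges of the genotypes overlapped. The ratio of group means was 1.91 in the mutant and 2.76 in the WT. With the chromosome 4 cluster and a chromosome 3 cluster left out, the other 53 members still summed to 47.3, 37.2 and 43.4 CPM in mutant 38 °C libraries, against 22.5, 22.3 and 20.3 in mutant 22 °C libraries. In WT 38 °C libraries these 53 summed to 46.6, 56.9 and 49.3 CPM, so at 38 °C the genotypes overlapped without those clusters. The ratio of group means at 38 °C, mutant over WT, was 0.84 for the 53 and 0.65 for all 60.

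**Figure D1:**
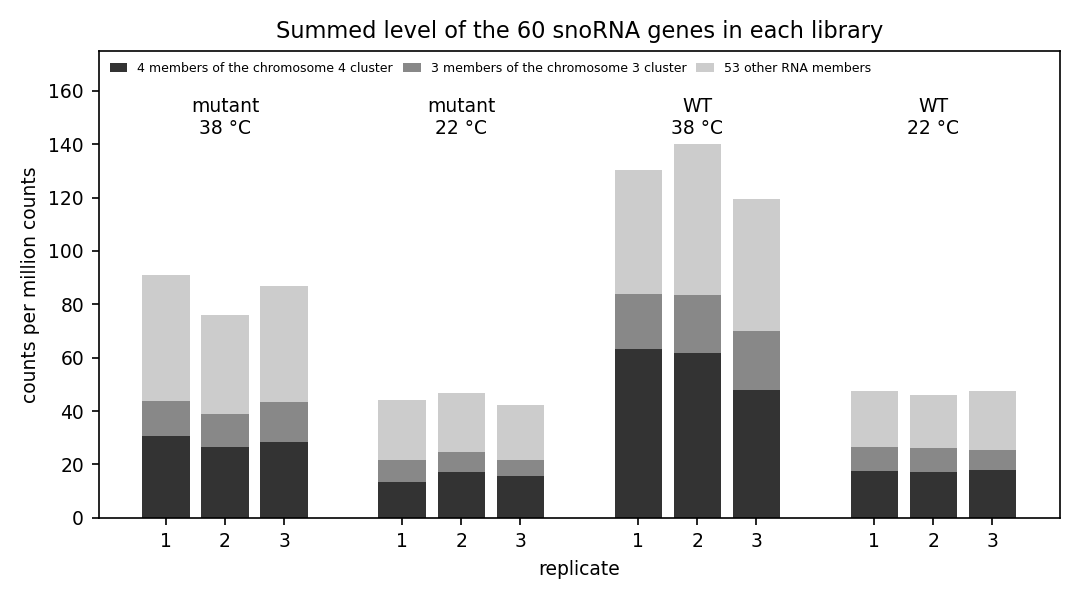
Summed level of the 60 snoRNA genes in each of the 12 libraries, in CPM, as stacked bars for the chromosome 4 cluster, the chromosome 3 cluster and the other 53 members. The 3 mutant libraries at 38 °C reach 76.0 to 90.9, above the 3 mutant libraries at 22 °C and below the 3 WT libraries at 38 °C.

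Heat in the mutant shares no library with heat in the WT, the comparison in which the terms were noticed, but its results were also known when the members were taken up. In CPM with TMM scaling all 3 mutant libraries at 38 °C exceeded all 3 mutant libraries at 22 °C for 34 of the 60 RNA members, against 17.1% of all 27715 genes, and the reverse held for 0 of 60, against 18.6%. In FPKM the counts were 39 of 60, against 22.6% of all genes, and 0 of 60, against 12.5%. In edgeR's quasi-likelihood test 14 RNA members rose with heat in the mutant at an adjusted p below 0.05 (Benjamini-Hochberg over all genes tested), against 11.3% of the 23585 genes tested. None fell, against 13.6% of genes tested, and none had an unadjusted p under 0.05 for a fall. DESeq2 also called 0 falls.

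The test covered 40 of the 60 RNA members, since a filter on low counts removed the other 20. Of the 40, 12 had a group mean of at least 10 counts only at 38 °C, so the filter favoured members that were high there. Without the filter 13 of all 60 rose, against 8.97% of all genes. Among the 20 members with a mean of at least 40 counts over all libraries 12 rose, beside 11.3% of all genes tested. Their median log2 fold change was 0.80, against -0.00 for all genes tested. That mean includes the 38 °C and WT libraries, and the share called among all genes with as many counts is not given. Without the 3 libraries that stood apart 7 RNA members rose, against 8.46% of the genes tested in that fit. The filter and the estimate of spread used all 12 libraries, WT included. Fewer than 14 rose when only the mutant libraries were fitted, so some calls were made only with the WT libraries in the fit. The number stands in the closing section, and the share of all genes called in that fit is not given. Of the 14 that rose, 7 lie in the clusters on chromosomes 4 and 3, 0 overlap another gene of the table and 12 carry a run complementary to rRNA, 10 of them to 18S.

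In the chromosome 4 cluster all 4 genes rose with heat in the mutant. AT4G39366, the RNA member with the highest mean level, had 96.5, 90.7 and 80.6 FPKM in mutant flowers at 38 °C and 48.2, 55.2 and 54.5 FPKM in mutant flowers at 22 °C. AT4G39364 had 63.6, 59.3 and 58.9 FPKM at 38 °C, against 27.6, 38.2 and 33.5 FPKM at 22 °C in the mutant. Neither gene's groups overlapped. AT4G39363 had 58.2, 48.0 and 59.9 FPKM in mutant flowers at 38 °C, against 20.5, 30.6 and 29.3 FPKM at 22 °C. AT4G39361 had 28.3, 16.7 and 30.3 FPKM in mutant flowers at 38 °C, against 11.4, 16.1 and 9.94 FPKM at 22 °C. For AT4G39361 the lowest library at 38 °C, replicate 2, nearly met the highest at 22 °C, also replicate 2. The log2 fold changes were 0.66 (SE 0.15, adjusted p = 0.0078) for AT4G39366 and 0.76 (SE 0.16, adjusted p = 0.0069) for AT4G39364. They were 0.94 (SE 0.18, adjusted p = 0.0040) for AT4G39363 and 0.90 (SE 0.26, adjusted p = 0.029) for AT4G39361, all by edgeR. The call of AT4G39361 was lost in 4 of the 12 fits that left out 1 library, those without mutant 38 °C replicate 1 or 3 or without mutant 22 °C replicate 1 or 3, with an adjusted p of up to 0.10.

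In WT flowers the same 4 genes stood higher at 38 °C than in the mutant. AT4G39366 had 176, 205 and 141 FPKM in WT flowers at 38 °C and 59.7, 54.8 and 60.9 FPKM in WT flowers at 22 °C. AT4G39361 had 74.1, 63.7 and 54.7 FPKM in WT flowers at 38 °C, against 17.9, 19.0 and 15.2 FPKM at 22 °C. Every WT library at 38 °C lay above every mutant library at 38 °C for these 2 genes. The share of the cluster in the summed level of the 60 members was 32.6% to 34.9% in mutant 38 °C libraries and 30.2% to 37.3% in mutant 22 °C libraries. It was 40.2% to 48.5% in WT 38 °C libraries and 36.9% to 37.5% in WT 22 °C libraries.

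The chromosome 3 cluster holds AT3G47342, AT3G47347 and AT3G47348 in 666 bases (chr3:17445382-17446047, plus strand). All 3 rose with heat in the mutant. AT3G47348 had 85.0, 75.5 and 96.9 FPKM in mutant flowers at 38 °C, against 55.6, 52.9 and 45.0 FPKM in mutant flowers at 22 °C (log2 fold change 0.64, SE 0.14, edgeR adjusted p = 0.0079). AT3G47347 had 57.4, 58.7 and 67.1 FPKM at 38 °C, against 36.1, 28.2 and 19.4 FPKM at 22 °C (1.02, SE 0.24, edgeR adjusted p = 0.0099). AT3G47342 had 14.4, 13.6 and 16.6 FPKM at 38 °C, against 6.88, 4.85 and 7.66 FPKM at 22 °C (1.08, SE 0.31, edgeR adjusted p = 0.025). The groups did not overlap for any of the 3 genes. AT3G47342 has an identical copy of its full length elsewhere in the genome, so its level is uncertain. Its call was lost in 3 of 12 fits with 1 library left out, those without mutant 38 °C replicate 3 or without mutant 22 °C replicate 1 or 2, with an adjusted p of up to 0.076.

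On chromosome 2 the similar genes AT2G35742 (chr2:15027589-15027668, minus strand) and AT2G35744 (chr2:15029712-15029790, minus strand) both rose. AT2G35744 had 71.3, 58.9 and 68.2 FPKM in mutant flowers at 38 °C, against 37.9, 37.2 and 27.7 FPKM at 22 °C (log2 fold change 0.84, SE 0.20, edgeR adjusted p = 0.012). AT2G35742 had 23.7, 16.0 and 22.7 FPKM at 38 °C, against 6.03, 7.31 and 5.35 FPKM at 22 °C (1.60, SE 0.41, edgeR adjusted p = 0.015). Neither gene's groups overlapped. The nearest gene upstream of AT2G35744 on its strand, AT2G35750, lies 39 bases away and also rose in the mutant (0.74, adjusted p = 0.00090), and AT2G35743, 142 bases upstream of AT2G35742, rose too (2.16, adjusted p = 0.0056). Reads that run across such gaps cannot be told apart in gene-level values. Another RNA gene there, AT2G35747, lies inside AT2G35750 and stayed at 0.19 to 0.28 FPKM in all 12 libraries.

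5 further genes rose that lie in no cluster. AT3G50825 had 44.6, 45.2 and 44.9 FPKM in mutant flowers at 38 °C, against 19.6, 12.7 and 15.7 FPKM at 22 °C (log2 fold change 1.37, SE 0.24, edgeR adjusted p = 0.0021). AT2G05765, named here after its values were seen, had 58.5, 34.4 and 51.9 FPKM at 38 °C, against 18.6, 18.5 and 14.7 FPKM at 22 °C (1.37, SE 0.28, edgeR adjusted p = 0.0047). Both were clear of overlap, and both calls held in all 12 fits with 1 library left out. AT1G32385 had 10.1, 9.46 and 9.44 FPKM in mutant flowers at 38 °C, against 2.03, 0.45 and 1.55 FPKM at 22 °C (2.69, SE 0.61, edgeR adjusted p = 0.0087). In WT flowers AT1G32385 had 2.77, 3.69 and 3.86 FPKM at 38 °C, against 2.82, 3.66 and 4.40 FPKM at 22 °C, and those groups overlapped. The difference of its heat responses, mutant minus WT, was 2.88 (SE 0.83) on the log2 scale and did not pass.

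The remaining 2 calls were fragile. SNOR77 (chr5:3343593-3343725, plus strand), one of the 7 members without TGATGA, had 9.33, 11.7 and 11.3 FPKM in mutant flowers at 38 °C, against 1.83, 5.48 and 4.68 FPKM at 22 °C (log2 fold change 1.31, SE 0.42, edgeR adjusted p = 0.040). AT1G20015 had 12.6, 6.89 and 6.24 FPKM at 38 °C, against 3.14, 1.59 and 2.90 FPKM at 22 °C (1.61, SE 0.53, edgeR adjusted p = 0.045). The groups did not overlap for either gene. The call of AT1G20015 was lost in all 12 fits with 1 library left out and that of SNOR77 in 10 of 12, all but those without mutant 22 °C replicate 2 or WT 22 °C replicate 1, with adjusted p values of up to 0.17 and 0.10.

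**Figure D2:**
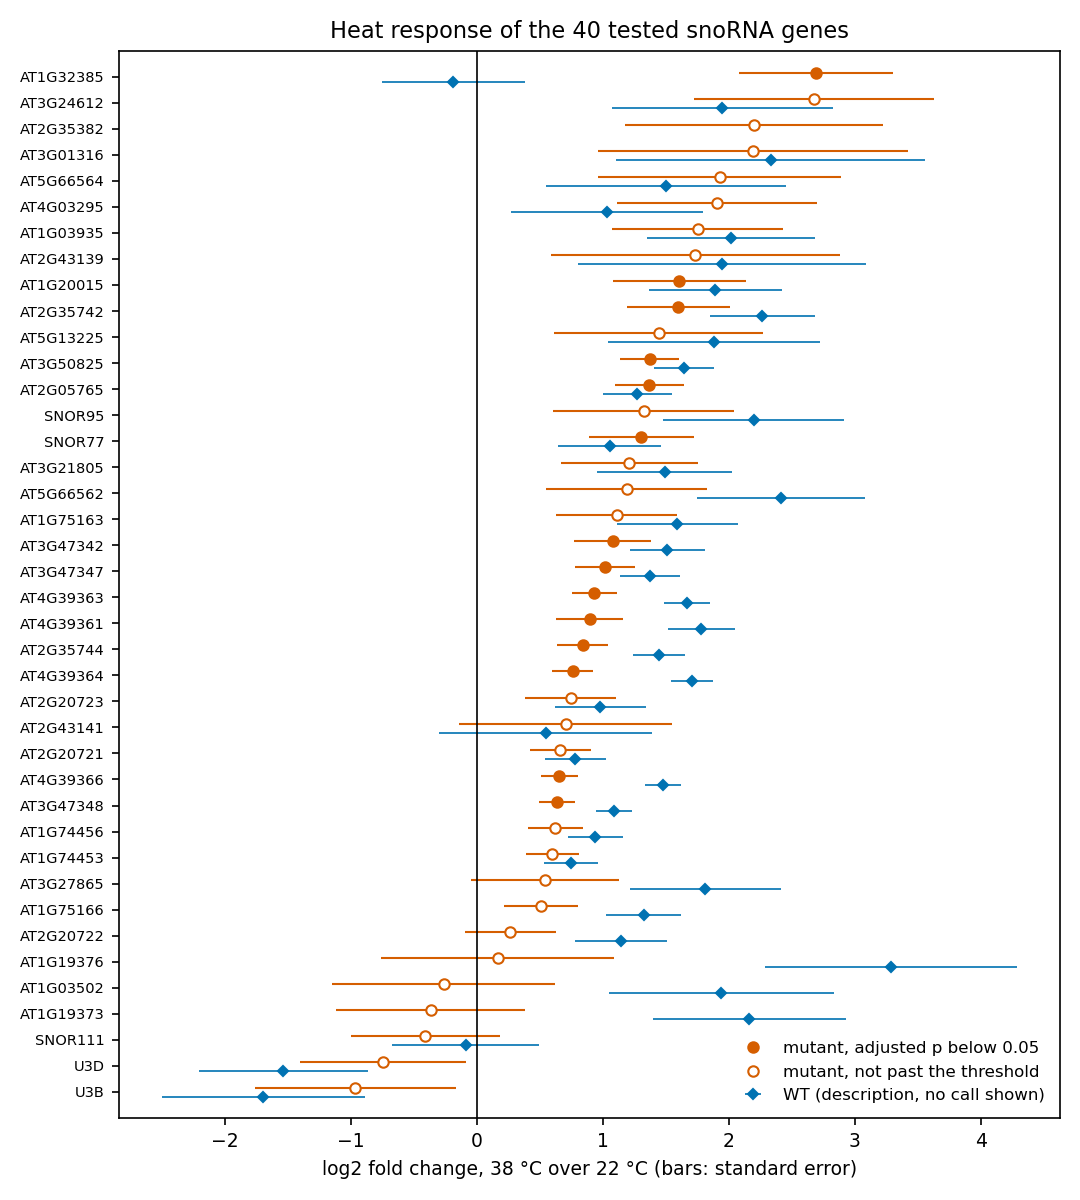
Log2 fold change, 38 °C over 22 °C, of the 40 tested snoRNA genes in the mutant (orange circles, filled where the adjusted p was below 0.05) and in the WT (blue diamonds), with standard errors and sorted by the mutant value. AT2G35382 has no WT point because it was at 0 counts in all WT 22 °C libraries; most points in both genotypes lie right of 0, and U3B and U3D lie left of it.

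The exact two-sided permutation test on log2(FPKM + 1) set 3 mutant libraries at 38 °C against 3 at 22 °C. It gave p = 0.1 for 40 of the 59 named members, the 8 protein members included. Some of the 59 were named for a large log2 fold change in this same comparison, so 40 is no share of all members. A p of 0.1 is the smallest this design allows, so this test could not pass 0.05 for any gene. It arises where the groups do not overlap, which in FPKM held for 22.6% of all genes as higher and 12.5% as lower.

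26 tested RNA members did not pass in the mutant. The chromosome 1 pair AT1G74453 and AT1G74456 came near the threshold. AT1G74456 had 55.9, 44.0 and 43.5 FPKM in mutant flowers at 38 °C, against 30.8, 26.2 and 29.1 FPKM at 22 °C (log2 fold change 0.62, SE 0.22, edgeR adjusted p = 0.057). AT1G74453 had 43.4, 42.0 and 52.4 FPKM at 38 °C, against 28.7, 34.1 and 21.4 FPKM at 22 °C (0.60, SE 0.21, edgeR adjusted p = 0.060). Both were clear of overlap but missed the threshold. A chromosome 2 cluster of 3 (AT2G20721, AT2G20722 and AT2G20723) had log2 fold changes of 0.27 to 0.75, with 0 calls. The members with the largest log2 fold changes short of the threshold, AT3G24612 (2.68), AT2G35382 (2.20) and AT3G01316 (2.19), reached at most 4.38 FPKM in any library and had SEs of 0.95 to 1.23.

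U3B and U3D had negative values that did not pass. U3 pairs with the rRNA precursor and is needed for its cutting. U3D (AT5G54075) had 2.91, 0.67 and 2.22 FPKM in mutant flowers at 38 °C, against 2.60, 3.21 and 3.18 FPKM at 22 °C (log2 fold change -0.74, SE 0.66, edgeR adjusted p = 0.44). U3B (AT5G53902) had 0.61, 0.15 and 0.14 FPKM at 38 °C, against 0.40, 0.63 and 0.63 FPKM at 22 °C (-0.96, SE 0.80, edgeR adjusted p = 0.41). The groups overlapped for both genes in the mutant. In WT flowers U3D had 0.25, 2.01 and 0.69 FPKM at 38 °C, against 2.30, 2.69 and 3.04 FPKM at 22 °C (-1.53, SE 0.67), and U3B had log2 fold change -1.69 (SE 0.81). Both genes overlap another gene on the opposite strand, and no source used here states which strand was counted. Over all 12 libraries the mean count was 3.0 for AT5G53905, which overlaps U3B (16.25), and 0.67 for HSFA9, which overlaps U3D (40.75). The part of the overlapping genes was not tested. SNOR111 had 2.53, 1.69 and 2.04 FPKM in mutant flowers at 38 °C, against 3.71, 2.44 and 1.66 FPKM at 22 °C, with overlapping groups. SNOR95 lies within Cpn60beta4 and did not pass (1.33, SE 0.72, edgeR adjusted p = 0.20), while Cpn60beta4 rose (0.94, edgeR adjusted p = 0.0066).

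The 20 untested members reached at most 4.31 FPKM in any library and had mean counts of at most 6.33. For 8 of these 20 all 3 mutant libraries at 38 °C exceeded all 3 at 22 °C in FPKM, against 22.6% of all genes. In CPM with TMM scaling this held for 6 of 20, against 17.1% of all genes. Values above 0 were seen in 60, 59 and 57 of the 60 RNA members in mutant 38 °C libraries, against 51, 51 and 53 in mutant 22 °C libraries. In the WT they were seen in 59, 59 and 60 at 38 °C, against 54, 50 and 51 at 22 °C.

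**Figure D3:**
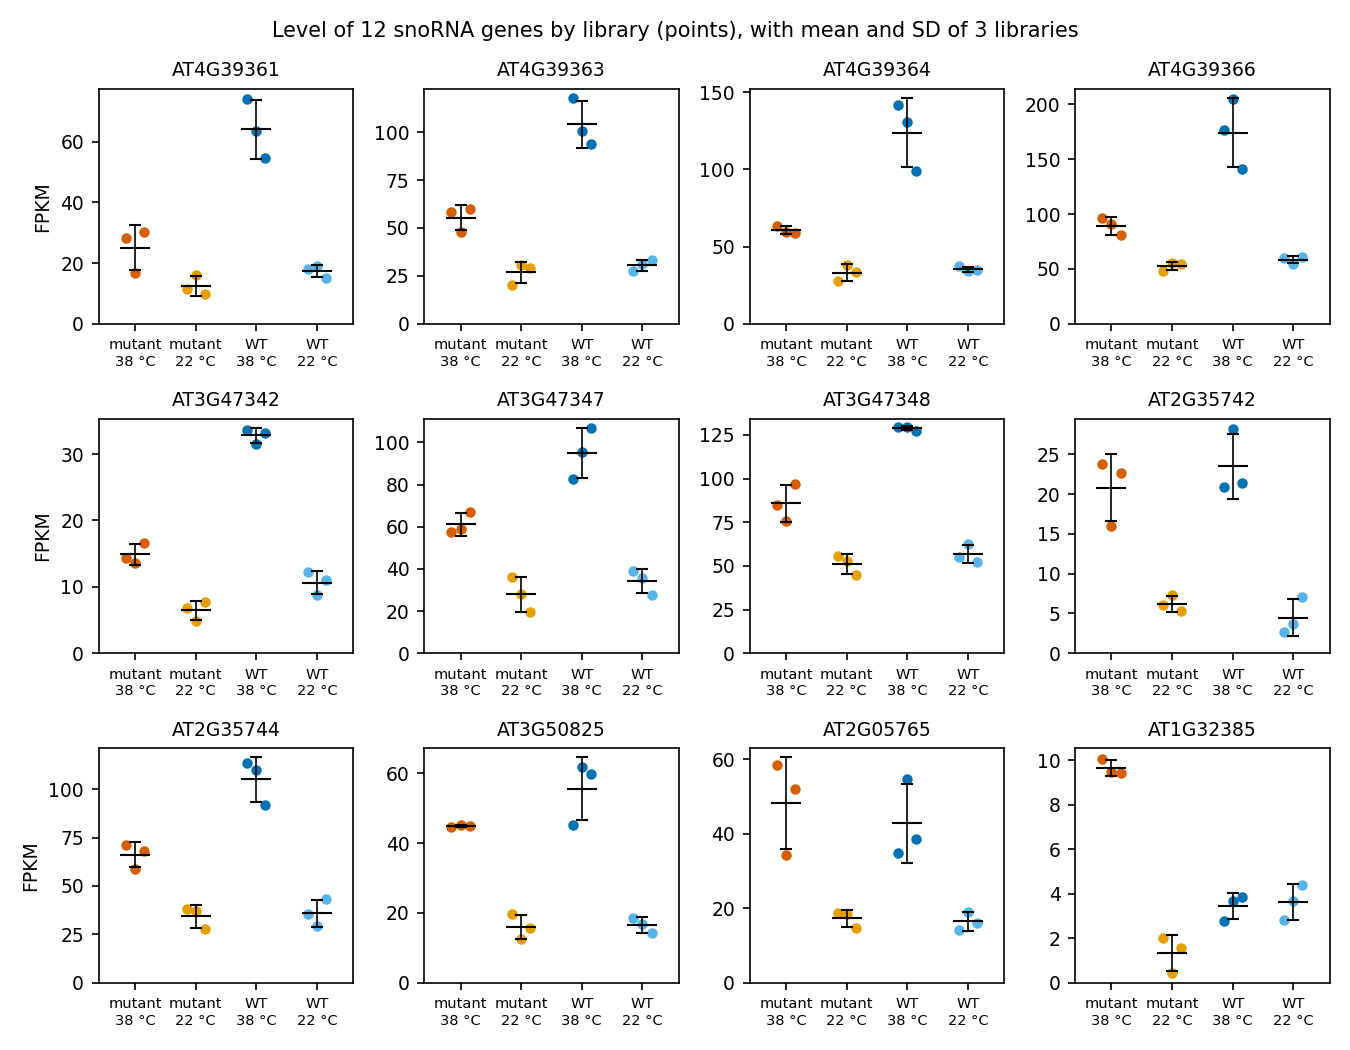
Level in FPKM of 12 snoRNA genes in each library (points), with the mean and SD of the 3 libraries of a group, ordered mutant 38 °C, mutant 22 °C, WT 38 °C and WT 22 °C. In the chromosome 4 genes (top row) the WT 38 °C points lie above the mutant 38 °C points, while for AT3G50825 and AT2G05765 those groups overlap and AT1G32385 is high at 38 °C in the mutant.

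Heat in the WT is the comparison in which the terms were noticed, so its values describe and support nothing. There 24 RNA members passed as higher and 0 as lower, beside 14.3% and 16.4% of all genes tested, with a median log2 fold change of 1.51 over the 40 tested. There were 14 higher without WT 38 °C replicate 2, beside 11.3% of genes in that fit, and 14 without WT 22 °C replicate 2, beside 10.9%. For 39 of the 60 every WT library at 38 °C exceeded every WT library at 22 °C, beside 18.9% of all genes, and the reverse held for 3 of 60, beside 22.7%. Of the 14 members that rose in the mutant 12 were among these 24, and AT1G32385 and SNOR77 were not. The log2 fold changes in the WT were 1.48 (SE 0.15) for AT4G39366, 1.71 (SE 0.17) for AT4G39364, 1.67 (SE 0.18) for AT4G39363 and 1.78 (SE 0.26) for AT4G39361. They were 1.09 (SE 0.14) for AT3G47348 and 1.65 (SE 0.24) for AT3G50825. AT2G35382 was at 0 counts in all 3 WT libraries at 22 °C and had 2.43, 2.00 and 2.30 FPKM at 38 °C, at least 2.94-fold higher when set against a floor of 3 counts per library.

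Mutant and WT flowers at 38 °C share the WT libraries with the comparison above, so their difference is also a description. 7 RNA members were lower in the mutant, beside 5.26% of all genes tested, and 0 were higher, beside 4.36%. These were the 4 genes of the chromosome 4 cluster, AT3G47342 and AT3G47348 of the chromosome 3 cluster, and AT2G35744. The log2 fold changes, mutant over WT, were -1.40 (SE 0.26) for AT4G39361, -1.07 (SE 0.16) for AT4G39364, -1.01 (SE 0.14) for AT4G39366 and -0.95 (SE 0.18) for AT4G39363. They were -0.71 (SE 0.20) for AT2G35744 and, in the chromosome 3 cluster, -1.17 (SE 0.30) for AT3G47342 and -0.63 (SE 0.14) for AT3G47348. Among the members that did not pass were AT3G47347 of the same cluster (-0.67, SE 0.23), AT3G50825 (-0.35, SE 0.23), AT2G05765 (0.13, SE 0.27) and U3D (0.91, SE 0.67). The median log2 fold change over the 40 tested was -0.38, beside -0.00 over all genes tested. For 18 of 60 members every mutant library lay below every WT library, beside 13.3% of all genes, and for 4 every mutant library lay above, beside 12.9%. Without the 3 libraries that stood apart 4 members were lower, beside 3.75% of genes in that fit. There were also 4 lower without mutant 38 °C replicate 1 (beside 3.74%), without mutant 38 °C replicate 2 (3.42%) or without WT 38 °C replicate 1 (2.46%).

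At 22 °C 0 RNA members passed in either direction, beside 0.161% of genes higher in the mutant and 0.0297% lower. In edgeR 1 tested RNA member had an unadjusted p under 0.05 as higher and 2 as lower, and DESeq2 called 0. Every mutant library lay above every WT library at 22 °C for 3 of 60 members, beside 4.91% of all genes, and below for 7, beside 5.42%. AT4G39366 had 48.2, 55.2 and 54.5 FPKM in the mutant, against 59.7, 54.8 and 60.9 FPKM in the WT, and these groups overlapped. The difference between the heat responses, mutant minus WT, shares the same WT libraries, and 0 RNA members passed in edgeR, beside 0.407% of genes higher and 1.18% lower. Of the RNA members 8 had an unadjusted p under 0.05 as lower and 1 as higher, and DESeq2 called 2 lower and 1 higher. The differences were -0.95 (SE 0.23) for AT4G39364, -0.82 (SE 0.20) for AT4G39366, -0.89 (SE 0.37) for AT4G39361 and -0.73 (SE 0.25) for AT4G39363.

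Neighbouring genes and other RNA classes give a setting for these values. For 17 tested members a gene that was also tested lay within 1 kb upstream on the same strand, and 14 such genes were distinct. In the mutant the median log2 fold change was 1.19 for these members and -0.11 for the upstream genes. Of the 14 upstream genes 2 rose and 2 fell, beside 11.3% and 13.6% of all genes tested. Outside the 2 terms the table holds 8 further snoRNA genes, which summed to 3.45, 2.89 and 3.59 CPM in mutant 38 °C libraries, against 1.77, 1.38 and 1.59 in mutant 22 °C libraries. Of the 4 of these that were tested, SNOR37-2 rose in the mutant (1.85, SE 0.58, edgeR adjusted p = 0.039). SNOR30 (1.16, SE 0.56), U60.2F (0.86, SE 0.56) and U60.1F (0.64, SE 0.43) did not pass, and U60.1F and U60.2F lie within the fibrillarin genes FIB1 and FIB2.

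Transfer RNA genes summed to 7.54, 7.59 and 7.26 CPM in mutant 38 °C libraries, against 4.52, 5.17 and 5.21 in mutant 22 °C libraries. MicroRNA precursors summed to 54.0, 48.4 and 50.7 CPM at 38 °C, against 39.4, 43.2 and 31.1 at 22 °C in the mutant. For both classes every mutant library at 38 °C lay above every mutant library at 22 °C. Spliceosomal snRNA genes summed to 2.05, 1.41 and 1.73 CPM in mutant 38 °C libraries, against 1.68, 1.62 and 1.26 at 22 °C, and these overlapped. The 4 genes described as rRNA ran from 2639 to 6039 CPM in mutant 38 °C libraries and from 1932 to 12391 in mutant 22 °C libraries. They ran from 3219 to 4233 in WT 38 °C libraries and from 2861 to 13881 in WT 22 °C libraries, and overlapped between temperatures in both genotypes. Transcripts of the mitochondrial genome had a median log2 fold change of 1.15 in the mutant. Of 111 tested 34 were higher and 0 lower, beside 11.3% and 13.6% of all genes tested. In the mutant against the WT at 38 °C 18 of 111 were lower and 0 higher (median -1.12), beside 5.26% and 4.36% of all genes tested. The part of these transcripts in the result was not tested.

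The 8 protein members had log2 fold changes of -0.44 to 0.42 with heat in the mutant. Of these 2 rose, 2 fell and 4 did not pass, beside 24.9% of genes tested called in either direction. IMP4 (AT1G63780), a protein of the particle that cuts the small-subunit rRNA precursor, had 51.4, 43.2 and 47.8 FPKM in mutant flowers at 38 °C, against 31.6, 38.5 and 32.3 FPKM at 22 °C (log2 fold change 0.37, SE 0.09, edgeR adjusted p = 0.012). AT2G14285, of the LSm/Sm family of RNA-binding ring proteins, had 33.3, 33.4 and 30.9 FPKM at 38 °C, against 21.5, 21.3 and 25.2 FPKM at 22 °C (0.42, SE 0.10, edgeR adjusted p = 0.011). In neither gene did the groups overlap. The call of IMP4 was lost without mutant 22 °C replicate 1 (adjusted p = 0.051).

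LSM6A and LSM6B, subunits of the LSm rings that bind U6 snRNA and decaying mRNA, fell. LSM6A (AT3G59810) had 43.5, 35.0 and 38.6 FPKM in mutant flowers at 38 °C, against 45.8, 53.6 and 47.8 FPKM at 22 °C (log2 fold change -0.44, SE 0.10, edgeR adjusted p = 0.0092). LSM6B (AT2G43810) had 57.3, 53.3 and 55.8 FPKM at 38 °C, against 58.1, 77.2 and 66.2 FPKM at 22 °C (-0.38, SE 0.08, edgeR adjusted p = 0.0076). The groups did not overlap, and LSM6A lost its call without mutant 22 °C replicate 2 (adjusted p = 0.051). Of 10 reference genes 0 were higher and 4 lower with heat in the mutant (median -0.22), beside 11.3% and 13.6% of all genes tested. Scaling libraries on these 10 moved the median log2 fold change of all genes to 0.21. Neither LSM6 gene then passed (-0.23 and -0.17, edgeR adjusted p = 0.13 and 0.24), and 4 of the 8 protein members rose and 0 fell.

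The other 4 did not pass in the mutant, although NAF1 and DIM1B passed as higher without mutant 22 °C replicate 2 (0.36 and 0.32, edgeR adjusted p = 0.017 and 0.045). NAF1, which helps H/ACA particles form, had 20.9, 19.4 and 20.2 FPKM at 38 °C, against 14.6, 19.4 and 15.1 FPKM at 22 °C (log2 fold change 0.20, SE 0.11). AT5G08180, the NHP2 protein of H/ACA particles, had 145, 118 and 135 FPKM at 38 °C, against 126, 164 and 124 FPKM at 22 °C (-0.17, SE 0.11). Groups overlapped for both genes. RUXF, the SmF protein of spliceosomal particles, had -0.23 (SE 0.14). DIM1B, described as of the rRNA adenine dimethylase family with no statement of which compartment's rRNA it modifies, had 0.19 (SE 0.10). Between genotypes 0 of the 8 passed at 38 °C or at 22 °C in edgeR or DESeq2, beside 9.62% and 0.191% of all genes tested in edgeR, and in edgeR 1 was higher at 38 °C, 1 higher at 22 °C and 1 lower at 22 °C at an unadjusted p under 0.05. In the WT, as a description, 3 were higher at 38 °C and 2 lower, beside 30.7% of all genes tested. Those were IMP4 (0.51), DIM1B (0.35) and NAF1 (0.34) as higher and LSM6A (-0.52) and LSM6B (-0.44) as lower.

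Protein partners of the snoRNAs were read from a list of 20 genes. This list also holds the members NAF1 and AT5G08180. In the mutant 5 rose, 0 fell and 15 did not pass, beside 11.3% of all genes tested higher and 13.6% lower, with a median log2 fold change of 0.18. Those that rose were the NOP56-like AT3G12860 (0.53, SE 0.11), the SNU13 homologues AT4G12600 (0.45, SE 0.11) and AT5G20160 (0.32, SE 0.10), the helicase gene AT3G49830 (1.53, SE 0.46) and nucleolin NUC-L1 (0.29, SE 0.09), with edgeR adjusted p from 0.0062 to 0.037. The methylase genes FIB2 (0.28, SE 0.11) and FIB1 (-0.09, SE 0.10) and the CBF5 gene NAP57 (0.20, SE 0.10) did not pass. A list of 11 genes for rRNA methylation and the small-subunit processome, which holds the members IMP4 and DIM1B, had 7 higher and 0 lower, beside the same 11.3% and 13.6%, with a median of 0.34. SWA1 (0.90, SE 0.11, edgeR adjusted p = 0.000335) and the methyltransferase gene RID2 (0.83, SE 0.08, edgeR adjusted p = 0.000111) had the largest values in it.

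Of 13 genes listed for RNA processing and decay 4 rose and 2 fell in the mutant, with a median of -0.01. Beside them 11.3% of all genes tested were higher and 13.6% lower. The list includes nuclear machinery that trims snoRNA ends and removes faulty precursors. A place on it does not show that a gene, AHG2 among them, has that role. AHG2, a poly(A) ribonuclease gene, rose (0.79, SE 0.13, edgeR adjusted p = 0.0017), as did the exosome subunit genes AT5G38890 (0.48, SE 0.13, edgeR adjusted p = 0.018) and RRP4 (0.43, SE 0.14, edgeR adjusted p = 0.040) and the exosome helicase gene MTR4 (0.26, SE 0.07, edgeR adjusted p = 0.016). The exosome nuclease gene EMB2763 fell (-0.37, SE 0.09, edgeR adjusted p = 0.0099), and so did the exonuclease gene XRN3 (-0.36, SE 0.07, edgeR adjusted p = 0.0041). The nuclease gene RTL2, whose product cuts rRNA precursors, did not pass (0.45, SE 0.27). Protein genes under the term rRNA processing, 92 in the table, had 45 of 90 tested higher and 4 lower in the mutant, beside 11.3% and 13.6% of all genes, with a median of 0.31.

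**Figure D4:**
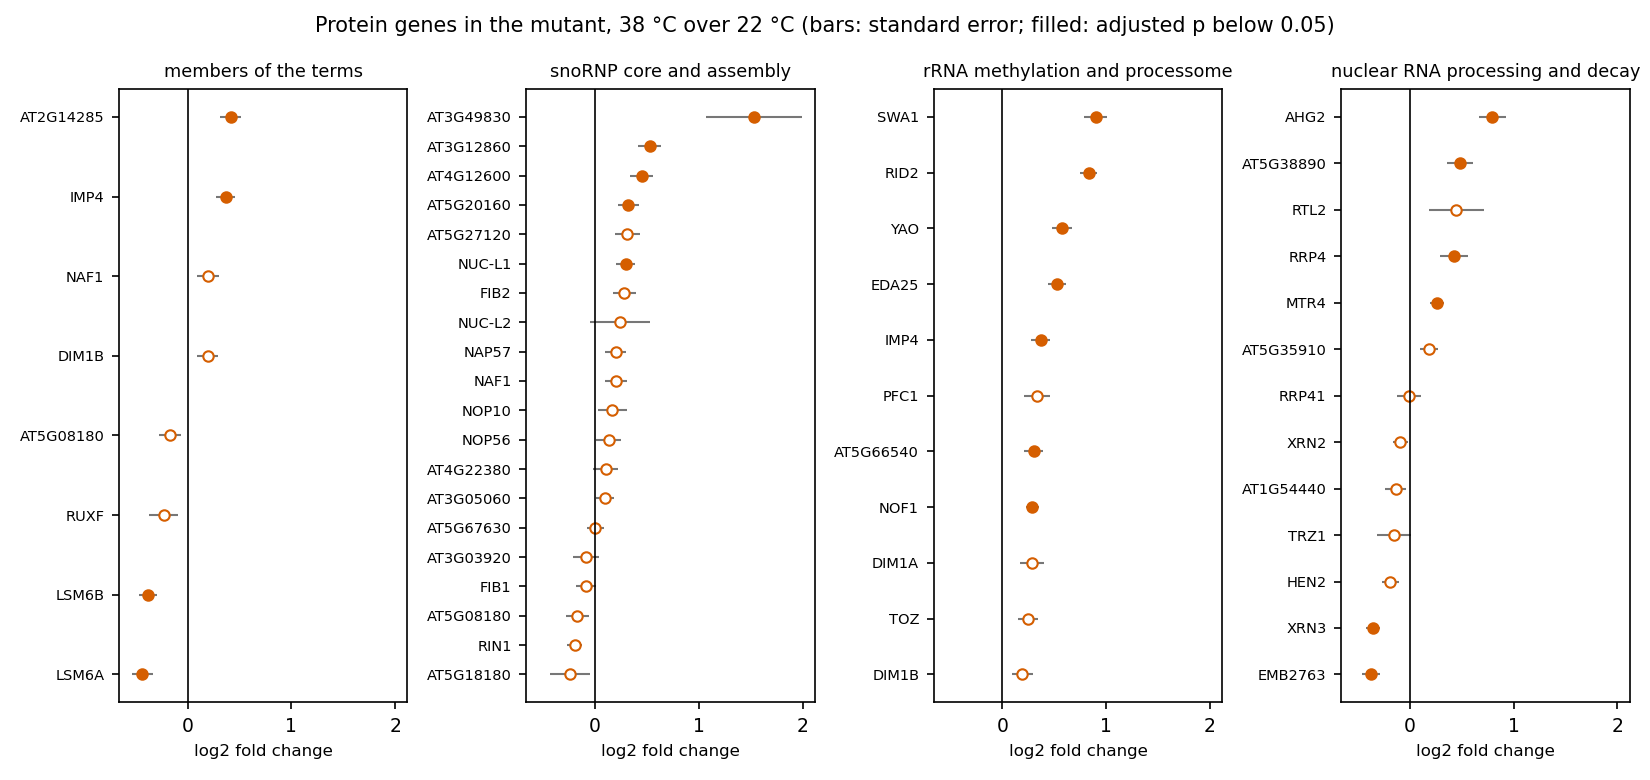
Log2 fold change with standard error, mutant 38 °C over mutant 22 °C, of the 8 protein members and of the 3 lists of partner genes, filled where the adjusted p was below 0.05. Of the 8 members 2 are right of 0 and 2 left of 0 with filled points, and in the processome list all 11 points lie right of 0.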

How the data were processed

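Poly(A) RNA of 12 flower samples was sequenced as paired reads, per the labels' protocols. Per the submitters' processing notes the tools were cutadapt 1.9, HISAT2 2.0.4 and StringTie 1.3.4d with build TAIR10. The authors deposited estimated counts and FPKM values per gene in one table; no source used here states whether counting used strand or how reads of several loci were treated.

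Counts were rounded and tested in edgeR 4.0.16 (R 4.3.3) with TMM scaling, a filter on low counts (filterByExpr, minimum 10), a quasi-likelihood fit over all 12 libraries and Benjamini-Hochberg adjustment over 23585 genes. FPKM values served to show levels. The common dispersion corresponds to a coefficient of variation of 25.1% between libraries. Alternatives used DESeq2 1.42.0, limma 3.58.1, other scalings, filters and left-out libraries. The fit was tested on simulated data. Same-numbered libraries did not deviate together (r from -0.28 to 0.27 over 18 pairs), so replicate numbers were not used as pairs.

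The members and lists were chosen with earlier results of these data known. RNA members were named if among the 8 with the highest FPKM, the 12 highest or 6 lowest log2 fold changes in the mutant, or if they had a name or lay in a cluster. Lists held protein partners, rRNA methylation, RNA decay, reference genes and cell type markers.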

Additional observations from a re-analysis of the deposited data

How the results depend on the processing

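The counts and medians below are for heat in the mutant unless another comparison is named. The numbers of calls in this section stand without the share of all genes called in the same setting. They cannot tell a looser or stricter test from a trait of the members. RNA members that rose numbered 14 in the main analysis. They numbered 22 with DESeq2, 37, 32 and 33 with limma on log2(FPKM + 1), on log2(FPKM + 0.1) and on log2(FPKM + 1) without the filter, 8 with only the groups compared and 7 without the 3 libraries set apart. Their median log2 fold change was 1.19 on reference gene scaling, 0.88 at a minimum count of 40, 0.87 with counts divided by 4, 1.24 and 0.86 in limma with pseudocount 0.1 and without the filter, and 0.80 over members with a mean count of at least 40, an alternative chosen after seeing the data. With 1 library left out the number that rose ranged from 10 to 14, the number that fell from 0 to 0 and the median from 0.90 to 1.11. With a replicate block 11 rose, and 21 were higher with heat in the WT and 5 lower in the mutant at 38 °C. No result changed direction with a call in any alternative.

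For heat in the WT, limma with pseudocount 1, with pseudocount 0.1 and without the filter gave 1 RNA member lower each, with 40 and 39 higher in the first and last and medians of 1.19, 1.67 and 1.15. Without the 3 libraries set apart 15 were higher and 1 lower. The median was 1.86 on reference gene scaling and 1.35 at a mean count of at least 40. With 1 library left out 14 to 24 were higher, 0 to 1 lower, and the median ran from 1.42 to 1.64.

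For the mutant against the WT at 38 °C, DESeq2 and the 3 limma settings gave 1 RNA member higher each, limma with pseudocount 1 gave 11 lower, and 4 were lower without the 3 libraries. The median was -0.52 on reference gene scaling, -0.24 with DESeq2, -0.22 without the filter, -0.48 at a minimum count of 40, -0.25 in limma and -0.18 in limma without the filter. With 1 library left out 0 were higher, 4 to 7 lower, and the median ran from -0.54 to -0.19. At 22 °C limma with pseudocount 0.1 gave 1 lower, and leaving out libraries gave 0 calls and medians of -0.13 to 0.05. For the difference of heat responses DESeq2 and the 3 limma settings gave 1 higher each, DESeq2 and reference gene scaling 2 lower, and limma 1 lower. Medians were -0.48 on reference gene scaling, -0.23 and -0.17 in limma with and without the filter, -0.49 without the 3 libraries, -0.43 over members overlapping no gene and -0.44 at a mean count of at least 40. With 1 library left out 0 were higher, 0 to 2 lower (2 without WT 38 °C replicate 3), and the median ran from -0.49 to -0.24.

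Of the protein members 4 rose and 0 fell on reference gene scaling (median 0.22), 1 fell with only the groups compared and in limma without the filter, 1 rose and 1 fell without the 3 libraries (median 0.16), and the median was 0.12 in limma with pseudocount 0.1. Under the rRNA modification term alone, which holds DIM1B, 0 rose and 0 fell (0.19), and the median under the other term was -0.17. With 1 library left out 1 to 4 rose, 1 to 2 fell, and the median ran from -0.064 to 0.17. For heat in the WT 0 were lower on reference gene scaling (median 0.40), and DIM1B alone gave 1 higher and 0 lower (0.35). Left-out libraries gave 1 to 3 higher, 2 to 2 lower and medians of 0.01 to 0.12. Elsewhere the protein median was -0.091 at 38 °C and -0.28 for the difference on reference gene scaling, 0.24 for DIM1B at 22 °C and -0.012 for the difference without the 3 libraries. With 1 library left out 0 proteins passed in these comparisons, with medians of -0.00 to 0.09 at 38 °C, 0.02 to 0.18 at 22 °C and -0.18 to -0.018 for the difference.

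No source used here states how the counts were derived, so they may differ from the number of fragments, and 28 RNA members had a mean count under 10. Close copies, overlapping genes and the unknown strand setting limit single genes and may also enter the sum.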
